A study of Saccharomyces cerevisiae with 21 samples.

Results

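The snR72 to snR78 cluster of Saccharomyces cerevisiae is a set of 7 small nucleolar RNA (snoRNA) genes that lie head to tail on 1 strand of chromosome XIII and are made as 1 transcript. Its 7 genes were chosen by name, and all 7 were present among the 5823 genes of the full-gene count table and the 5894 genes of the mid-gene count table. The choice of this cluster used values of these data, so its values in every strain are given as a description, with the fold change and its standard error and without a test of their own.

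The data are 21 libraries of total RNA, 3 from each of 7 strains, all in log phase in a rich medium at 30 °C. Ribosomal RNA was removed, and stranded libraries were read as pairs of 50 bases. Of the strains, 3 carry changes in Spt6 (spt6-R, spt6-KK and the combined spt6-R,KK), 3 carry changes in Rpb1, the largest subunit of RNA polymerase II (rpb1-TPY, rpb1-FSP and the combined rpb1-TPY,FSP), and the remaining strain is WT. Spt6, a histone chaperone, moves along genes with the elongating polymerase and contacts the linker of Rpb1 through a pair of SH2 domains. The labels do not spell out the changed residues, and they give each strain a single isolate number. Separate cultures are not stated for the 3 libraries of each strain. Errors and p-values therefore reflect the spread among the sequenced samples, which may be technical. Full-gene library totals ran from 4860861 to 7803152 counts. The alleles change protein sequence, so the level of a transcript does not check a label: SPT6 averaged 143 ± 6.6 CPM in spt6-R, 191 ± 34 in spt6-KK, 130 ± 9.2 in spt6-R,KK and 267 ± 30 in WT (SD, n = 3 each), and RPO21, which encodes Rpb1, passed the threshold in none of the 6 mutants (edgeR, adjusted p from 0.174 to 0.9999).

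The cluster encodes C/D box snoRNAs. Such an RNA carries conserved C and D boxes, is bound by Nop1, Nop56, Nop58 and Snu13, and pairs through a short stretch with ribosomal RNA to place a 2′-O-methyl group on the paired rRNA nucleotide that lies 5 positions upstream of the D or D′ box. In yeast a polycistronic snoRNA transcript is cut in its spacers by the RNase III enzyme Rnt1, which recognises stems capped by a loop of the form AGNN, and the ends are then trimmed by exonucleases.

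The genes run snR78, snR77, snR76, snR75, snR74, snR73 and snR72 in the direction of transcription, so the numbering falls along the transcript. They span chrXIII:297278-298651 on the plus strand of the R64 build, 1374 bases in all, of which 665 bases are in the 7 annotated noncoding genes. No protein-coding gene of the annotation overlaps the span: SEC59, on the minus strand, starts 539 bases before snR78 and runs away from it, and BUD22, on the plus strand, starts 216 bases after snR72. The 7 RNAs, read from the R64 reference genome of RefSeq, are shown because each is a member, and the capitals mark the stretch that is complementary to the rRNA around its known methylation target.

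snR78: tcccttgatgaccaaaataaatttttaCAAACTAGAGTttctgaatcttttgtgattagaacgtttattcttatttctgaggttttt
snR77: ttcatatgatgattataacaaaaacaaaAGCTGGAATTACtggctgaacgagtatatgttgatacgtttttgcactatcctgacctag
snR76: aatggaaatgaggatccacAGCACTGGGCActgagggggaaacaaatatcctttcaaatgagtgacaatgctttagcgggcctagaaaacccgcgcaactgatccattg
snR75: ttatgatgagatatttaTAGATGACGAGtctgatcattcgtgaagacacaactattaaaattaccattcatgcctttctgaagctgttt
snR74: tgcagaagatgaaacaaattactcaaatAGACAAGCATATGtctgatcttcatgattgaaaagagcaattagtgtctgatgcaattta
snR73: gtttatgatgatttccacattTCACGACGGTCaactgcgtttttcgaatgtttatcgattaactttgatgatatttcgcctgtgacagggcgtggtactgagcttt
snR72: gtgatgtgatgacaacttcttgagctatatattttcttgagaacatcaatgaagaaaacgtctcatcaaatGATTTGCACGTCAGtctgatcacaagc

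The capital stretches were 11 bases long in snR78, snR76, snR75 and snR73, 12 in snR77, 13 in snR74 and 14 in snR72. They matched the large subunit rRNA around position 2421 (snR78), 2197 (snR76), 2288 (snR75), 2959 (snR73) and 876 (snR72), and the small subunit rRNA around position 578 (snR77) and 28 (snR74). In snR78, snR77, snR76, snR75, snR74 and snR72 the letters CTGA, the D box sequence, followed so that the target lay at the fifth base before it, and in snR73 the letters there were CTGC. In 6 members the stretch lay in the first part of the RNA, next to the internal box, and in snR72 it began at base 72 of 98, next to the terminal box.

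The spacers measured 141 bases (snR78 to snR77), 131 (snR77 to snR76), 84 (snR76 to snR75), 131 (snR75 to snR74), 81 (snR74 to snR73) and 141 (snR73 to snR72). The spacers on either side of snR77 are shown because the change in the mutants, described next, differs between the members before and after the spacer that follows snR77. Capitals mark a perfect stem of at least 5 Watson-Crick pairs closed by a 4-base loop that reads AGNN on the transcribed strand.

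snR78 to snR77 spacer: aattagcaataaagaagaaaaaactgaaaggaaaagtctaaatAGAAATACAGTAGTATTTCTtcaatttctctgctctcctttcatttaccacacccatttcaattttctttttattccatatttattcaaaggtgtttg
snR77 to snR76 spacer: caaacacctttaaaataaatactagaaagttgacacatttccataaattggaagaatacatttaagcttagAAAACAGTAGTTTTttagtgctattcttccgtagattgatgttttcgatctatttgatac

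The first of these stems has 8 pairs and an AGTA loop and lies at chrXIII:297408-297427, and the next has 5 pairs and an AGTA loop and lies at chrXIII:297665-297678. A stem of 10 pairs with an AGTT loop lies in the spacer between snR73 and snR72, at chrXIII:298490-298513. No such stem was found in the other 3 spacers by this search. Among windows of 131 bases tiled over both strands of the genome, 0.956% held a stem of this kind, and among windows of 141 bases 1.03% did. A match is a description of the letters and not a measured cleavage site.

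Counts were low, from 2 to 415 per member and library in the full-gene table. Levels are given in CPM, with library sizes scaled by TMM. A log2 fold change is the edgeR estimate for a mutant over WT with its standard error. A member is said to have passed the threshold where its false discovery rate (Benjamini-Hochberg, edgeR's quasi-likelihood test over 5618 genes) was under 0.05. All 7 members passed the filter on low counts. All 6 comparisons use the same 3 WT libraries, so they are not independent of each other. These are bulk libraries, in which fewer cells holding an RNA and less of it per cell cannot be told apart.

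The first 2 snoRNAs of the transcript were higher in 5 of the 6 mutants, by 3.34 to 5.85 times when summed. snR78 and snR77 passed the threshold upward in spt6-R, spt6-KK, spt6-R,KK, rpb1-FSP and rpb1-TPY,FSP, by log2 fold changes between 1.67 and 2.82. Neither passed it in rpb1-TPY. No later member passed it upward in any mutant, and snR76 and snR73 passed it downward in 1 and 2 mutants. Of all genes tested, 4.02% passed upward and 4.47% downward in spt6-R, 6.35% and 6.94% in spt6-KK, 19.3% and 17.5% in spt6-R,KK, 0.0534% and 0% in rpb1-TPY, 0.89% and 1.46% in rpb1-FSP, and 18.8% and 16.4% in rpb1-TPY,FSP. The choice of the cluster used these contrasts, so nothing is read from the members' counts against those shares.

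**Figure D1:**
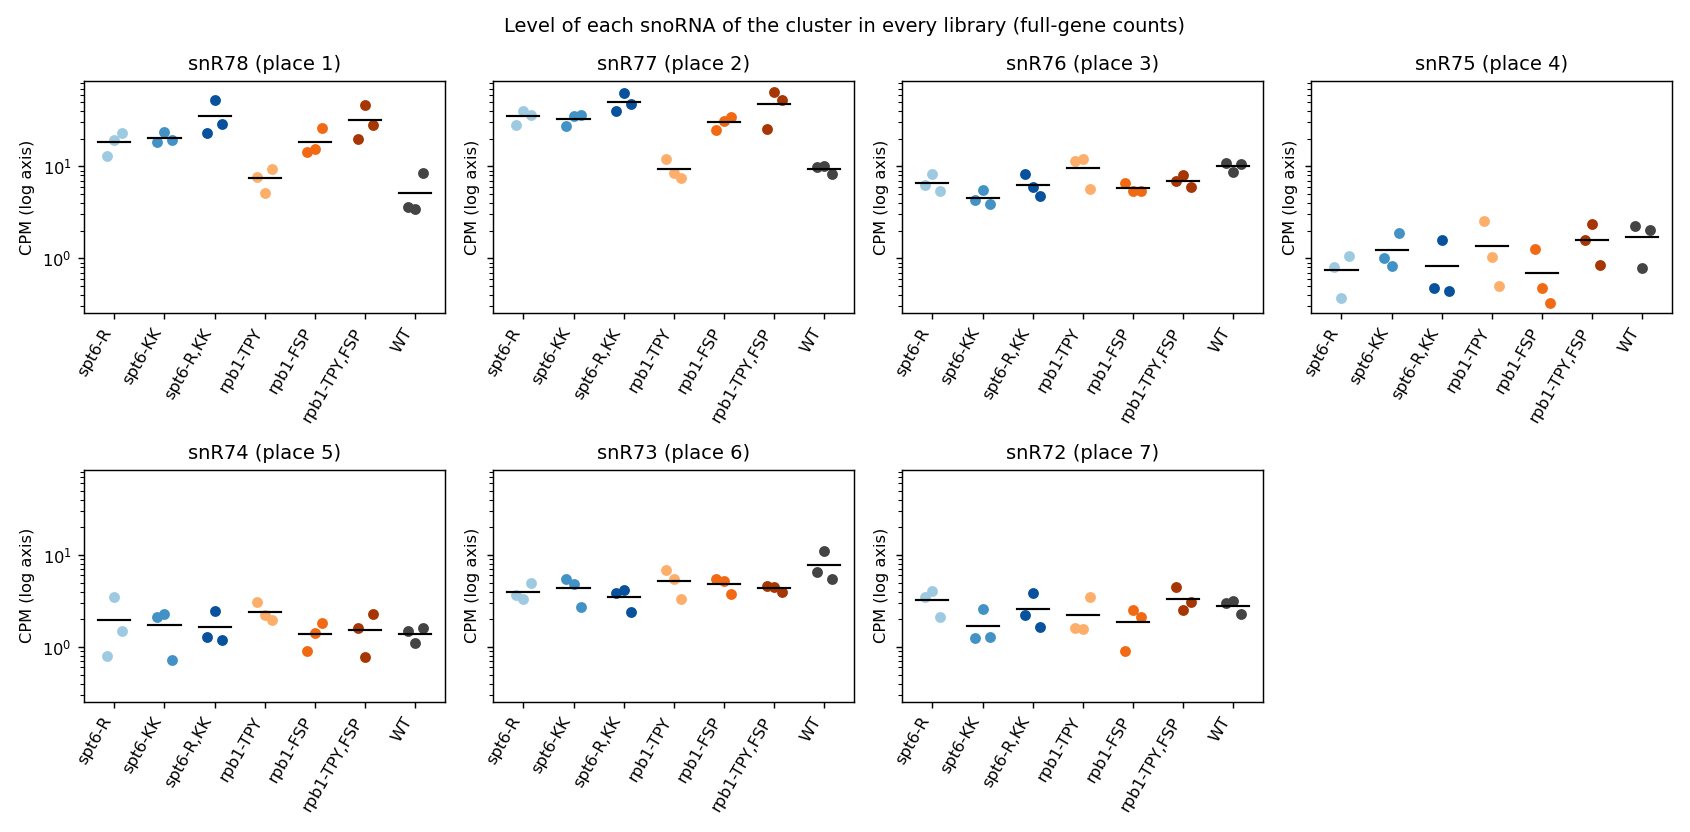
Level of each snoRNA of the cluster in every library, in CPM on a log axis, by strain. Points are the 3 libraries of a strain and bars their mean; snR78 and snR77 sit above all WT libraries in every mutant but rpb1-TPY, and the other panels show no such rise.

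snR78, the first member, guides methylation of the large subunit rRNA. It measured 12.8, 19.2 and 23 CPM in the 3 libraries of spt6-R, 18.4, 23.6 and 19.4 CPM in spt6-KK, and 23.1, 53.3 and 28.6 CPM in spt6-R,KK. In the Rpb1 mutants it measured 7.7, 5.18 and 9.26 CPM in rpb1-TPY, 14.2, 15.6 and 26 CPM in rpb1-FSP, and 19.8, 46.3 and 28.4 CPM in rpb1-TPY,FSP. The WT libraries held 3.61, 3.45 and 8.43 CPM of snR78, from 24, 22 and 37 counts. Every library of the 5 strains other than rpb1-TPY lay above all 3 WT libraries, while rpb1-TPY overlapped WT. The log2 fold change was 1.90 ± 0.42 in spt6-R, 2.06 ± 0.41 in spt6-KK, 2.82 ± 0.41 in spt6-R,KK, 0.59 ± 0.45 in rpb1-TPY, 1.92 ± 0.42 in rpb1-FSP and 2.67 ± 0.40 in rpb1-TPY,FSP. WT library 3, the one with the fewest counts in all, stood apart from the other WT libraries for this gene. Without it the log2 fold change was 2.37 in spt6-R, 2.53 in spt6-KK, 3.30 in spt6-R,KK, 2.39 in rpb1-FSP and 3.14 in rpb1-TPY,FSP, all past the threshold, and 1.06 in rpb1-TPY, which did not pass. The call of snR78 was lost in spt6-R without WT library 2 (1.67) or without spt6-R library 3 (1.69). It was lost in rpb1-FSP without WT library 1 (1.71), WT library 2 (1.70) or rpb1-FSP library 3 (1.59).

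snR77, the second member, guides methylation of the small subunit rRNA. It measured 28.4, 40.2 and 36 CPM in spt6-R, 27.1, 35.6 and 36 CPM in spt6-KK, and 40.4, 62.8 and 47.3 CPM in spt6-R,KK. In the Rpb1 mutants it measured 12, 8.45 and 7.44 CPM in rpb1-TPY, 24.9, 30.8 and 34.5 CPM in rpb1-FSP, and 25.6, 65 and 52.9 CPM in rpb1-TPY,FSP. The WT libraries held 9.78, 10.2 and 8.2 CPM of snR77. The 5 strains that were above WT for snR78 were above it for snR77 too, in all 3 libraries each, and rpb1-TPY lay on both sides of WT. The log2 fold change was 1.88 ± 0.29 in spt6-R, 1.79 ± 0.28 in spt6-KK, 2.40 ± 0.28 in spt6-R,KK, -0.02 ± 0.31 in rpb1-TPY, 1.67 ± 0.29 in rpb1-FSP and 2.33 ± 0.28 in rpb1-TPY,FSP. The calls of snR77 in these 5 strains held under each of the 13 or 14 alternatives run.

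Over all genes tested, the libraries of a mutant lay wholly above WT for 17.4% of genes in spt6-R, 18.9% in spt6-KK, 23.4% in spt6-R,KK, 3.24% in rpb1-TPY, 13% in rpb1-FSP and 26.2% in rpb1-TPY,FSP. They lay wholly below WT for 19.6%, 17.4%, 22.5%, 2.51%, 14.5% and 22.1% of genes in the same order of strains. These shares are the background for the statements on overlap.

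snR76, the next member, guides methylation of the large subunit rRNA. It measured 6.25, 8.19 and 5.44 CPM in spt6-R, 4.29, 5.57 and 3.89 CPM in spt6-KK, and 8.18, 5.92 and 4.75 CPM in spt6-R,KK. In the Rpb1 mutants it measured 11.4, 12.1 and 5.62 CPM in rpb1-TPY, 6.54, 5.35 and 5.44 CPM in rpb1-FSP, and 6.89, 7.99 and 5.93 CPM in rpb1-TPY,FSP. WT held 10.8, 8.64 and 10.7 CPM. The 5 strains in which snR78 and snR77 were above WT all lay wholly below WT for snR76 in these TMM-scaled levels. As a share of the library total, rpb1-TPY,FSP overlapped WT for snR76. Its library 1 held 65 of 7803152 counts, against 55 of 6850069 in WT library 2. snR76 passed the threshold, downward, in spt6-KK with a log2 fold change of -1.13 ± 0.27. The estimates of -0.61 ± 0.27 in spt6-R, -0.68 ± 0.27 in spt6-R,KK, -0.80 ± 0.27 in rpb1-FSP and -0.53 ± 0.26 in rpb1-TPY,FSP did not pass, nor did -0.05 ± 0.26 in rpb1-TPY. In spt6-R,KK it passed under 4 of 14 alternatives and in rpb1-FSP under 1 of 13, the fit of only the 2 groups compared.

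snR75 and snR74, in the middle of the transcript, were both scarce. snR75, a large subunit guide, had 2 to 16 counts per library. Its mean level was 0.744 ± 0.346 CPM in spt6-R, 1.23 ± 0.563 in spt6-KK, 0.831 ± 0.637 in spt6-R,KK, 1.37 ± 1.07 in rpb1-TPY, 0.691 ± 0.508 in rpb1-FSP, 1.6 ± 0.751 in rpb1-TPY,FSP and 1.7 ± 0.797 in WT (SD, n = 3 each). Every mutant overlapped WT, and the log2 fold changes, from -1.29 ± 0.69 in rpb1-FSP to -0.08 ± 0.57 in rpb1-TPY,FSP, did not pass the threshold.

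snR74, a small subunit guide, had 5 to 19 counts per library. Its mean level was 1.95 ± 1.42 CPM in spt6-R, 1.72 ± 0.874 in spt6-KK, 1.64 ± 0.696 in spt6-R,KK, 2.43 ± 0.556 in rpb1-TPY, 1.38 ± 0.453 in rpb1-FSP, 1.54 ± 0.739 in rpb1-TPY,FSP and 1.4 ± 0.264 in WT (SD, n = 3 each). Its libraries of rpb1-TPY, at 3.05, 2.24 and 1.98 CPM, lay above the WT libraries, at 1.5, 1.1 and 1.59 CPM, with a log2 fold change of 0.80 ± 0.52 that did not pass the threshold. The other 5 mutants overlapped WT, with log2 fold changes from 0.01 ± 0.55 in rpb1-FSP to 0.45 ± 0.54 in spt6-R. Differences of the size of these standard errors were not detectable for snR75 and snR74 at this depth.

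snR73, next to last in the transcript, guides methylation of the large subunit rRNA. It measured 3.69, 3.35 and 4.99 CPM in spt6-R, 5.43, 4.89 and 2.74 CPM in spt6-KK, and 3.85, 4.18 and 2.37 CPM in spt6-R,KK. In the Rpb1 mutants it measured 6.9, 5.52 and 3.31 CPM in rpb1-TPY, 5.45, 5.19 and 3.79 CPM in rpb1-FSP, and 4.56, 4.54 and 3.95 CPM in rpb1-TPY,FSP. WT held 6.62, 11.1 and 5.47 CPM. As for snR76, the libraries of all mutants but rpb1-TPY lay below the 3 WT libraries in TMM-scaled levels, in rpb1-FSP and spt6-KK by a narrow margin. As a share of the library total, spt6-KK, rpb1-FSP and rpb1-TPY,FSP overlapped WT for snR73. Their libraries numbered 1 held 43 of 7729008, 30 of 5584434 and 43 of 7803152 counts, against 24 of 4860861 in WT library 3. snR73 passed the threshold downward in spt6-R,KK, with a log2 fold change of -1.18 ± 0.33, and in rpb1-TPY,FSP, with -0.84 ± 0.31. Without WT library 2, where snR73 was highest, the values were -0.82 in spt6-R,KK and -0.48 in rpb1-TPY,FSP, and neither passed. In rpb1-TPY,FSP it passed under 6 of 14 alternatives, and leaving out library 1, 2 or 3 of that strain ended the call at -0.88, -0.90 and -0.81.

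snR72, the last member, is a large subunit guide. Its mean level was 3.25 ± 1.02 CPM in spt6-R, 1.71 ± 0.751 in spt6-KK, 2.57 ± 1.13 in spt6-R,KK, 2.21 ± 1.09 in rpb1-TPY, 1.86 ± 0.842 in rpb1-FSP, 3.35 ± 0.998 in rpb1-TPY,FSP and 2.81 ± 0.464 in WT (SD, n = 3 each). Every mutant overlapped WT. Its log2 fold change was between -0.73 ± 0.44 in spt6-KK and 0.26 ± 0.40 in rpb1-TPY,FSP. None passed the threshold, in the main fit or under any of the alternatives run.

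**Figure D2:**
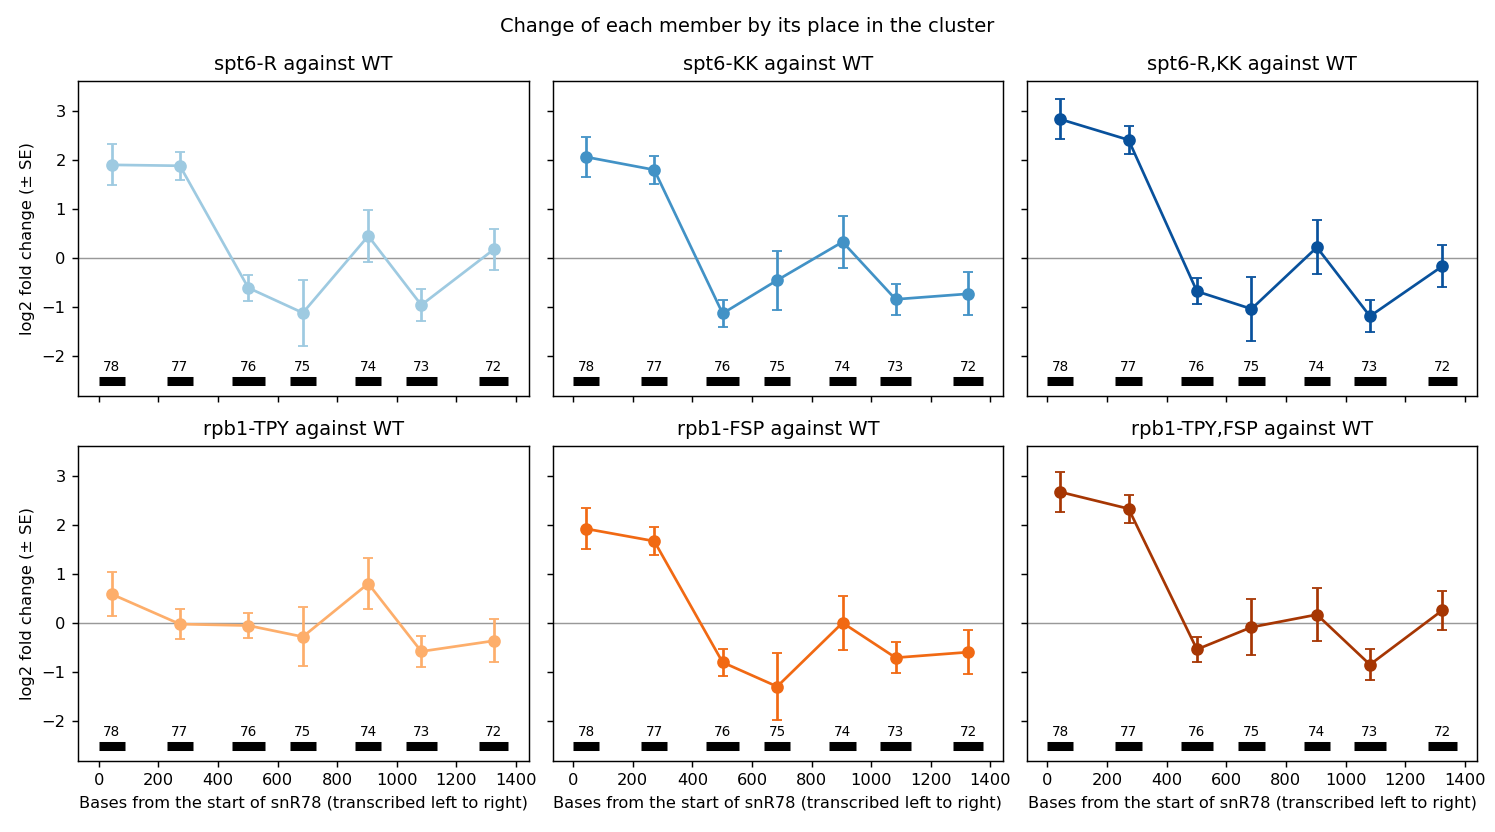
Log2 fold change over WT with its standard error for each member, placed by distance in bases from the start of snR78, with the genes drawn as bars beneath. In 5 panels the first 2 points lie between 1.67 and 2.82 and the next point, snR76, between -1.13 and -0.53; in rpb1-TPY the first 3 points are 0.59, -0.02 and -0.05.

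The change stepped down between snR77 and snR76 in the 5 strains, and did not fall evenly along the transcript. The mean log2 fold change of the 3 members nearest the start (snR78, snR77 and snR76) minus that of the 3 nearest the end (snR74, snR73 and snR72) was 1.17 in spt6-R, 1.32 in spt6-KK, 1.89 in spt6-R,KK, 0.22 in rpb1-TPY, 1.36 in rpb1-FSP and 1.62 in rpb1-TPY,FSP. The same difference taken within each library varied by 0.383 (SD pooled over strains, log2 scale), which is given as a description of single libraries and is no test of these values. Without rpb1-TPY,FSP library 2 the value for that strain was 1.23. The median log2 fold change of the 7 members was 0.17 in spt6-R, -0.45 in spt6-KK, -0.16 in spt6-R,KK, -0.05 in rpb1-TPY, -0.59 in rpb1-FSP and 0.17 in rpb1-TPY,FSP, against -0.02, 0.05, 0.02, 0.00, 0.00 and 0.06 over all genes tested. The median of the members was -0.25 for spt6-R without spt6-R library 2, and -0.56 for spt6-R,KK without spt6-R,KK library 2.

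Summed levels showed the same step. The grouping into the first 2 and the last 5 was chosen after the values were seen. snR78 plus snR77 averaged 53.2 ± 10.4 CPM in spt6-R, 53.4 ± 7.05 in spt6-KK, 85.2 ± 27.5 in spt6-R,KK, 16.7 ± 3.06 in rpb1-TPY, 48.7 ± 10.9 in rpb1-FSP, 79.3 ± 33 in rpb1-TPY,FSP and 14.6 ± 1.8 in WT (SD, n = 3 each). Those means were 3.65, 3.67, 5.85, 1.15, 3.34 and 5.45 times WT in the same order. The summed last 5 members averaged 16.6 ± 2.58, 13.6 ± 2.86, 14.8 ± 3.92, 20.9 ± 5.47, 14.5 ± 0.867 and 17.8 ± 1.54 CPM in the mutants and 23.7 ± 1.43 CPM in WT. Those means were 0.699, 0.574, 0.624, 0.884, 0.612 and 0.75 times WT, with TMM scaling. As a share of the library total, the last 5 members of rpb1-TPY,FSP overlapped WT. Library 1 of that strain held 180 of 7803152 counts in them, against 97 of 4860861 in WT library 3. In WT that sum was mostly snR76 and snR73, which averaged 10.1 and 7.74 CPM. snR74 had log2 fold changes from 0.01 to 0.45 in the 5 strains with the step, and those of snR72 had both signs. In both combined mutants library 1 held the least of the cluster, at 79.5 CPM in spt6-R,KK and 64.5 CPM in rpb1-TPY,FSP, and library 2 the most, at 134 and 129 CPM, while the WT libraries held 37.6, 38.5 and 38.7 CPM.

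The share of the cluster's counts that fell in snR78 and snR77 needs no scaling between libraries. It was 73.2%, 75.2% and 79.6% in spt6-R, 76.3%, 78.6% and 84.1% in spt6-KK, and 79.8%, 86.6% and 88% in spt6-R,KK. It was 43.6%, 37.8% and 52.9% in rpb1-TPY, 72.1%, 75.6% and 81.7% in rpb1-FSP, and 70.4%, 86% and 83.5% in rpb1-TPY,FSP. In WT it was 35.6%, 35.5% and 42.9%. The lowest library of the 5 strains, at 70.4%, was above the highest of rpb1-TPY, at 52.9%, and rpb1-TPY overlapped WT.

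**Figure D3:**
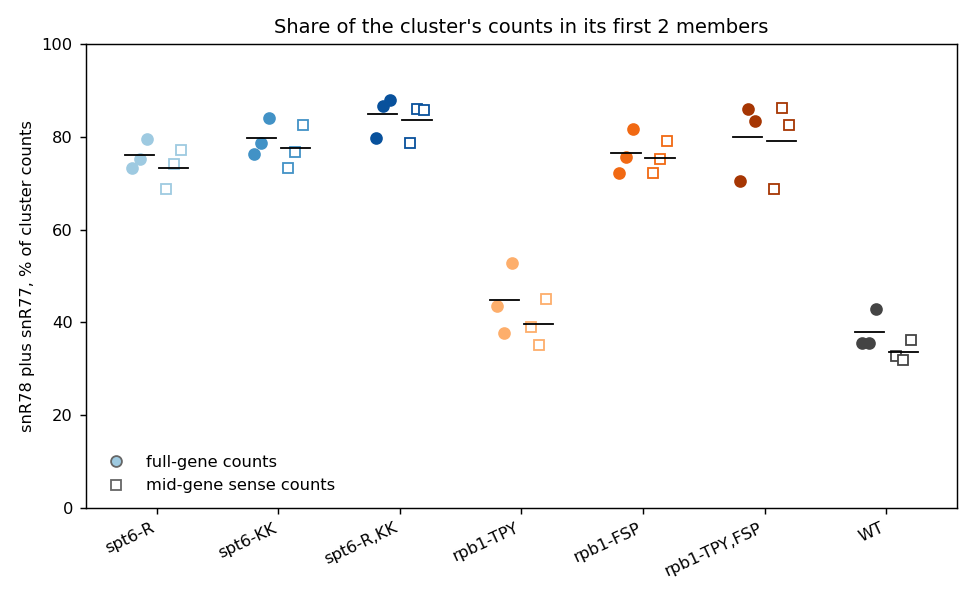
Share of the cluster's counts that fell in snR78 and snR77, in percent, for every library of each strain. Filled circles are full-gene counts, open squares mid-gene sense counts and bars the means; 5 mutants lie at 68.7% or more by either count, and rpb1-TPY and WT at 52.9% or less.

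The balance between neighbours changed at the same place. snR77 counts over snR76 counts were 4.54, 4.91 and 6.61 in spt6-R, 6.32, 6.39 and 9.26 in spt6-KK, and 4.94, 10.6 and 9.97 in spt6-R,KK. They were 1.06, 0.70 and 1.32 in rpb1-TPY, 3.81, 5.76 and 6.33 in rpb1-FSP, and 3.71, 8.14 and 8.93 in rpb1-TPY,FSP, against 0.903, 1.18 and 0.766 in WT. The ratio was 3.71 or more in each library of the 5 strains and near 1 in rpb1-TPY and WT. The ratio of snR78 to snR77 moved less: it ran from 0.452 to 0.848 over the 15 libraries of the 5 strains, and was 0.64, 0.612 and 1.24 in rpb1-TPY and 0.369, 0.338 and 1.03 in WT.

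Levels per length (CPM per kb of gene) put the members in a different order in the mutants and in WT. In spt6-R,KK snR77 stood at 570 ± 130 CPM per kb and snR78 at 402 ± 185, followed by snR76 at 57.6 ± 16, snR73 at 32.7 ± 9.06, snR72 at 26.2 ± 11.6, snR74 at 18.6 ± 7.9 and snR75 at 9.34 ± 7.16. In rpb1-TPY,FSP the order began likewise, with snR77 at 543 ± 230 CPM per kb, snR78 at 362 ± 156 and snR76 at 63.6 ± 9.45. In WT it was snR77 at 107 ± 12 CPM per kb, snR76 at 92.3 ± 11.3, snR73 at 73.1 ± 28.3, snR78 at 59.4 ± 32.5, snR72 at 28.7 ± 4.74, snR75 at 19.1 ± 8.95 and snR74 at 15.9 ± 3 (SD, n = 3 each). In WT each member overlapped the next in the order within 1 SD of both means. In spt6-R,KK the step from snR78 to snR76 was the only one that exceeded the sum of both SDs, and in rpb1-TPY,FSP the steps from snR78 to snR76 and from snR76 to snR73, at 41 ± 3.26 CPM per kb, did.

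The sense counts over the middle 70% of each gene showed the same step between snR77 and snR76. They were between 0.974 (snR72) and 1.59 (snR75) times the full-gene counts when summed over all libraries, and above 1 for every member but snR72. For snR78 this differed by strain. Its mid-gene counts were 18, 16 and 26 against 24, 22 and 37 full-gene counts in WT. In rpb1-TPY they were 40, 23 and 40 against 48, 30 and 56. They exceeded the full-gene counts in every library of spt6-R,KK, rpb1-FSP and rpb1-TPY,FSP, and lay on both sides in spt6-R and spt6-KK. How reads that overlap several features or match several places were counted is not stated in the labels. By mid-gene counts snR78 had log2 fold changes of 2.48 ± 0.45 in spt6-R, 2.58 ± 0.45 in spt6-KK, 3.50 ± 0.44 in spt6-R,KK, 0.68 ± 0.51 in rpb1-TPY, 2.59 ± 0.45 in rpb1-FSP and 3.29 ± 0.44 in rpb1-TPY,FSP, from 18, 16 and 26 counts in WT. These were larger than by full-gene counts, while those of snR77 were close to them, such as 2.45 ± 0.29 against 2.40 ± 0.28 in spt6-R,KK. snR76 in spt6-KK, at -1.04 ± 0.25, and snR73 in spt6-R,KK, at -1.02 ± 0.32, passed the threshold by mid-gene counts too, and snR73 in rpb1-TPY,FSP, at -0.79 ± 0.31, did not. By mid-gene levels not every strain that lay wholly below WT by full-gene levels still did so. snR76 reached 9.14 CPM in spt6-R, above the lowest WT library at 9.11. snR73 reached 6.49 CPM in spt6-KK and 6.37 in rpb1-FSP, above the lowest WT library at 6.31. Among all genes tested on mid-gene counts 3.71% passed upward and 3.41% downward in spt6-R, 5.52% and 6.3% in spt6-KK, 18.3% and 16.9% in spt6-R,KK, 0.0353% and 0.0706% in rpb1-TPY, 0.865% and 1.29% in rpb1-FSP, and 17.3% and 16.5% in rpb1-TPY,FSP. Since these counts hold sense reads only, the rise of snR78 and snR77 was present in sense reads.

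**Figure D4:**
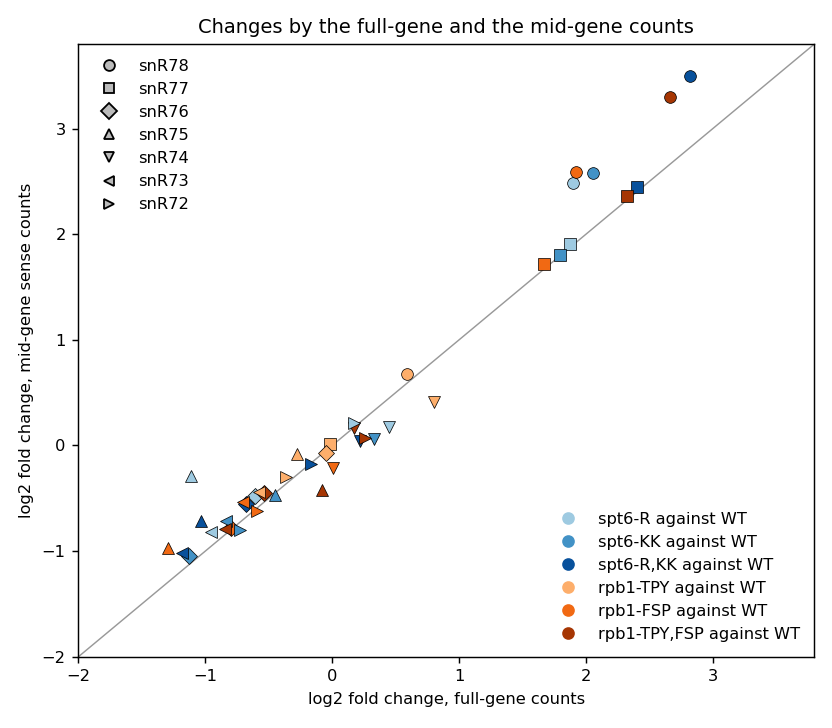
Log2 fold change over WT by full-gene counts (x) and by mid-gene sense counts (y) for the 7 members in the 6 mutants, with the line of equal values. snR78 lies above the line in the 5 strains where it was called, up to 3.50 against 2.82 in spt6-R,KK, and snR77 lies close to it.

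No member differed past the threshold between the combined mutants and the sum of their parts. The interaction is the log2 fold change of a combined mutant minus the sum of both of its parts. For the Spt6 alleles it was -1.13 ± 0.54 for snR78, -1.27 ± 0.38 for snR77 and 1.06 ± 0.39 for snR76. These 3 had an unadjusted p under 0.05, but 0 of 7 members passed in edgeR and 0 in DESeq2, where 0.356% of all genes passed in edgeR. For the Rpb1 alleles it was 0.16 ± 0.58 for snR78 and 0.68 ± 0.40 for snR77, 0 of 7 members passed with either tool, 0 had an unadjusted p under 0.05, and 3.19% of all genes passed in edgeR. Between spt6-R,KK and rpb1-TPY,FSP the difference was 0.16 ± 0.33 for snR78 and 0.08 ± 0.25 for snR77. There too 0 of 7 members passed with either tool, 0 had an unadjusted p under 0.05, and 0.0356% of all genes passed in edgeR.

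In the combined mutants the protein-coding genes around the cluster changed in different directions. The rises of SEC59 and ERG5 given here were smaller than those of snR78 and snR77. SEC59, the dolichol kinase gene upstream, measured 78.4 ± 13 CPM in spt6-R,KK, 72.4 ± 0.98 CPM in rpb1-TPY,FSP and 54 ± 5.7 in WT. It rose by a log2 fold change of 0.54 ± 0.16 in spt6-R,KK (edgeR, adjusted p 0.0131) and 0.42 ± 0.16 in rpb1-TPY,FSP (adjusted p 0.0468). CLU1, the next gene upstream, fell in both, with -0.52 ± 0.12 (edgeR, adjusted p 0.00251) and -0.66 ± 0.12 (adjusted p 0.000301). BUD22, which is transcribed from the same strand just downstream of snR72 and encodes a factor of small subunit assembly, had log2 fold changes of 0.00 ± 0.24 in spt6-R,KK and 0.17 ± 0.23 in rpb1-TPY,FSP and passed in no mutant. ERG5, a desaturase of ergosterol synthesis, rose in spt6-R,KK by 0.52 ± 0.17 (edgeR, adjusted p 0.0231).

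Of 10 snoRNAs in 4 other polycistronic units, none passed in spt6-KK or rpb1-TPY. In spt6-R 1 rose, in rpb1-FSP 1 rose, in spt6-R,KK 2 rose and 1 fell, and in rpb1-TPY,FSP 1 rose and 2 fell. Beside these counts, 4.02% of all genes were higher in spt6-R, 0.89% in rpb1-FSP, 19.3% in spt6-R,KK (17.5% lower) and 18.8% in rpb1-TPY,FSP (16.4% lower). The median log2 fold change of the 10 was -0.18 in spt6-R,KK and -0.21 in rpb1-TPY,FSP. snR53, the last of the 2 snoRNAs of its unit, was the one that rose in all 4 of these strains, from a low level: 4.69 ± 0.62 CPM in spt6-R, 3.18 ± 1.8 in spt6-R,KK, 3.18 ± 0.19 in rpb1-FSP, 2.79 ± 0.73 in rpb1-TPY,FSP and 0.926 ± 0.58 in WT. Its log2 fold change was 2.25 ± 0.41 in spt6-R (edgeR, adjusted p 0.00258), and its partner snR67, the first of that unit, had 0.36 ± 0.18 there (adjusted p 0.204). snR55, in the middle of a unit of 3, rose in spt6-R,KK by 0.67 ± 0.26 (edgeR, adjusted p 0.044). snR70, in the middle of another unit of 3, fell in spt6-R,KK by 0.67 on the log2 scale and in rpb1-TPY,FSP by 0.71 (edgeR, adjusted p 0.0183 and 0.0127). snR190, the first of 2, fell in rpb1-TPY,FSP by 0.54 (edgeR, adjusted p 0.023). In none of these units did the first member pass the threshold upward in a mutant.

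Among C/D snoRNAs with a promoter of their own, 20 of 22 listed genes were tested, of which 1 rose and 4 fell in spt6-R,KK and 6 fell in rpb1-TPY,FSP. The shares of all genes were 19.3% higher and 17.5% lower in spt6-R,KK, and 18.8% higher and 16.4% lower in rpb1-TPY,FSP. snR4, which guides acetylation of the small subunit rRNA, fell to 99.8 ± 32 CPM in spt6-R,KK and 108 ± 24 CPM in rpb1-TPY,FSP, against 310 ± 43 CPM in WT (edgeR, adjusted p 8.39e-05 and 0.000175). snR71 rose in spt6-R,KK by 0.84 ± 0.26 (edgeR, adjusted p 0.0151). In the single-allele strains 1 rose in spt6-R, 1 rose and 5 fell in spt6-KK, and none passed in rpb1-TPY or rpb1-FSP, beside 4.02% of all genes higher in spt6-R and 6.35% higher and 6.94% lower in spt6-KK.

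Of 6 C/D snoRNAs that lie in introns, snR38, in an intron of TEF4, rose in the same 5 strains as snR78 and snR77. It averaged 28.3 ± 3.2 CPM in spt6-R, 27 ± 4.6 in spt6-KK, 25.5 ± 11 in spt6-R,KK, 9.44 ± 2.5 in rpb1-TPY, 20.7 ± 4 in rpb1-FSP, 17.1 ± 1.7 in rpb1-TPY,FSP and 9.71 ± 2.2 in WT (edgeR, adjusted p 0.00147, 0.00134, 0.000341, 0.9999, 0.0345 and 0.023). snR54, in an intron of IMD4, rose in spt6-R,KK by 0.89 ± 0.19 and in rpb1-TPY,FSP by 1.03 ± 0.18 (edgeR, adjusted p 0.000884 and 0.000197), and snR18 fell in rpb1-TPY,FSP by 0.68. Among 29 H/ACA snoRNAs, which guide pseudouridylation, 2 rose and 11 fell in spt6-R,KK, 3 rose and 9 fell in rpb1-TPY,FSP, 1 rose and 6 fell in spt6-KK, 1 rose and 2 fell in spt6-R, 4 fell in rpb1-FSP and none passed in rpb1-TPY. Of all genes 19.3% were higher and 17.5% lower in spt6-R,KK, 18.8% and 16.4% in rpb1-TPY,FSP, 6.35% and 6.94% in spt6-KK, 4.02% and 4.47% in spt6-R, and 0.89% and 1.46% in rpb1-FSP. snR33 fell the most in both combined mutants, by 1.62 and 1.73 on the log2 scale.

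Of 11 genes for the core proteins of C/D snoRNA particles and their assembly factors, 5 fell in spt6-R,KK, where 17.5% of all genes fell, and 5 in rpb1-TPY,FSP, where 16.4% did, in both cases with NOP58, NOP1, NOP56 and SNU13 among them, and none rose in any mutant. NOP1, the methyltransferase, averaged 549 ± 105 CPM in spt6-R,KK, 530 ± 74.5 CPM in rpb1-TPY,FSP and 1131 ± 129 in WT, a log2 fold change of -1.04 ± 0.14 and -1.09 ± 0.14 (edgeR, adjusted p 7.08e-06 and 3.92e-06). In the other strains 3 of the 11 fell in spt6-R, 3 in spt6-KK, 1 in rpb1-FSP and none in rpb1-TPY, where 4.47%, 6.94%, 1.46% and 0% of all genes fell.

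Of 13 genes for processing and decay enzymes, 5 fell in spt6-R,KK, 6 fell in rpb1-TPY,FSP, 2 in spt6-R, 1 in spt6-KK and none in rpb1-TPY or rpb1-FSP, and none rose. The shares of all genes that fell were 17.5% for spt6-R,KK, 16.4% for rpb1-TPY,FSP, 4.47% for spt6-R and 6.94% for spt6-KK. RNT1, which encodes the enzyme that cuts snoRNA spacers, averaged 13.5 ± 1.9 CPM in spt6-R, 24.8 ± 5.2 in spt6-KK, 14.1 ± 1 in spt6-R,KK, 25.6 ± 7 in rpb1-TPY, 15.8 ± 4.4 in rpb1-FSP, 15.5 ± 4 in rpb1-TPY,FSP and 24.9 ± 5.5 in WT. It fell past the threshold in spt6-R, spt6-R,KK and rpb1-TPY,FSP (edgeR, adjusted p 0.0294, 0.0108 and 0.0308). XRN1, a 5′ to 3′ exonuclease, fell in both combined mutants, by 0.72 and 0.70 on the log2 scale (edgeR, adjusted p 3.5e-05 and 4.98e-05). Of 5 snoRNA termination genes, NRD1 rose in both combined mutants, by 0.71 ± 0.19 and 0.67 ± 0.19 (edgeR, adjusted p 0.00602 and 0.00902), NAB3 fell by 0.40 on the log2 scale in spt6-KK and by 0.43 in spt6-R,KK (adjusted p 0.0327 and 0.00952), and SEN1 fell by 0.50 in spt6-R,KK (adjusted p 0.041). The shares of all genes that rose were 19.3% in spt6-R,KK and 18.8% in rpb1-TPY,FSP. These lists were drawn up with results of these data known. The part of these proteins in the levels of the cluster was not tested.

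The genes outside the cluster whose log2 CPM was most alike to that of the summed cluster over the 21 libraries were CWP2 (Pearson r 0.948), MVD1 (0.941), TSA1 (0.938), YMR122W-A (0.936) and PST1 (0.931). The sum is mostly snR78 and snR77, all libraries share the strains, and the likeness is a description over 7 strain means (r from 0.961 to 0.996) more than over 21 separate points. CWP2 and PST1 encode cell wall proteins, MVD1 an enzyme of the mevalonate pathway and TSA1 a peroxiredoxin. MVD1 averaged 1015 ± 78.4 CPM in spt6-R, 960 ± 70.1 in spt6-KK, 1296 ± 61.2 in spt6-R,KK, 540 ± 21.2 in rpb1-TPY, 915 ± 72.9 in rpb1-FSP, 1140 ± 217 in rpb1-TPY,FSP and 559 ± 8.6 in WT.

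Several features of the data bear on how these values can be read. RNA was cleaned on RNeasy columns, which are known to retain short RNAs poorly, and the genes are 87 to 109 bases long. A count does not tell a mature snoRNA from its precursor or from a readthrough transcript, since reads over the spacers are not in these tables. Scaling by the total count alone in place of TMM moved the median log2 fold change of all genes to 0.25 in spt6-KK, 0.21 in spt6-R,KK, 0.11 in rpb1-FSP and 0.32 in rpb1-TPY,FSP. The genes passing upward and downward were then 268 and 143 in spt6-R (226 and 251 with TMM), 974 and 171 in spt6-KK (357 and 390), 1637 and 503 in spt6-R,KK (1082 and 982), 183 and 52 in rpb1-FSP (50 and 82), and 2011 and 414 in rpb1-TPY,FSP (1058 and 920). Under that scaling snR78 and snR77 passed upward in the same 5 strains, and snR73 in rpb1-TPY,FSP, at -0.58, no longer passed. The sign turned only for values that did not pass: snR77 and snR76 in rpb1-TPY, snR72 in spt6-R,KK and snR75 in rpb1-TPY,FSP.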

How the data were processed

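Per the submitters' processing notes, the tools named are cutadapt 1.16, STAR 2.6.1b, featureCounts 1.6.3 of Subread and DESeq2 1.22.2, with the R64 (sacCer3) build. The authors deposited raw counts per gene and library: full-gene counts of all signal in a gene, and sense counts over its middle 70%. No count was changed. Full-gene counts of all 21 libraries were fitted in edgeR 4.0.16 (R 4.3.3) with strain as the only term, after filterByExpr (5618 genes kept, 205 left out) and TMM scaling, with the quasi-likelihood test and Benjamini-Hochberg adjustment over all genes kept (false discovery rate under 0.05; common biological coefficient of variation 0.154). Mid-gene counts were fitted alike over 5667 genes. The fit was tested on simulated data. Alternatives were DESeq2 1.42.0, other scaling, no filter, only the 2 groups compared, mid-gene counts, a replicate block and leaving out libraries. CPM errors are standard deviations over 3 libraries, and depth limits the precision of members with few counts. Positions and sequences came from R64. The genes named are all 7 members, SPT6 and RPO21, 2 protein-coding genes on each side, the 5 most alike genes (prior count 2), up to 4 called genes of each list with the largest change in a combined mutant, and any gene of a list of 10 or fewer. The members and lists were chosen with earlier results of these data known.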

Additional observations from a re-analysis of the deposited data

How the results depend on the processing

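In all alternatives no value of a member past the threshold changed sign. snR77 passed in the same 5 strains under every alternative. snR78 passed under every alternative in spt6-KK, spt6-R,KK and rpb1-TPY,FSP, under 11 of 13 in spt6-R and under 10 of 13 in rpb1-FSP. Leaving out 1 library in turn left 1 to 2 members past the threshold in spt6-R and in rpb1-FSP, 3 in spt6-KK, 2 to 4 in spt6-R,KK, 2 to 3 in rpb1-TPY,FSP and 0 in rpb1-TPY. The difference between the first 3 and the last 3 members in rpb1-TPY,FSP then ran from 1.23 to 1.92. In spt6-R and rpb1-FSP without library 2 of WT, only snR77 was left.

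The background counts over all genes moved more. Leaving out 1 library gave 110 (without WT library 2) to 489 genes in spt6-R, with 160 without WT library 3, 131 without spt6-R library 2 and 149 without spt6-R library 3. It gave 268 (without spt6-KK library 2) to 959 in spt6-KK, with 308 and 389 without WT libraries 2 and 3 and 363 without spt6-KK library 3. It gave 1 to 3 in rpb1-TPY, 49 (without rpb1-FSP library 3) to 110 in rpb1-FSP (73 or fewer without any library but WT library 1), 6 (without WT library 2) to 60 in the Spt6 interaction, 96 (without rpb1-FSP library 2) to 254 in the Rpb1 interaction and 1 between the combined mutants. Fits of only the 2 groups compared gave 902 genes in spt6-R, 437 in rpb1-FSP and 1 in rpb1-TPY. DESeq2 gave 232 in rpb1-FSP and 104 in the Spt6 interaction. Total-count scaling gave 1145 in spt6-KK and 235 in rpb1-FSP. Mid-gene counts gave 6 in rpb1-TPY and 1 between the combined mutants. Leaving out the libraries numbered 1 of both combined mutants, an alternative chosen after seeing the data, also gave 1 between them. The cause of these shifts was not tested. In fits of 2 groups the filter left out snR75 or snR74 in some comparisons, which then had no value. There snR76 passed in rpb1-FSP, at -0.79, and snR73 in rpb1-TPY,FSP, at -0.85, did not.

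The labels number the libraries 1 to 3 in every strain. Same-numbered libraries of a mutant and WT had deviations that correlated between -0.416 and 0.202, and the numbers were not taken as pairs. Same-numbered libraries of different mutants were not compared, so an effect shared by them was not tested. The replicate block gave 607 genes in spt6-R (477 without it), 918 in spt6-KK (747) and 2218 in spt6-R,KK (2064). It gave 177 in rpb1-FSP (132 without it), 2141 in rpb1-TPY,FSP (1978) and 3 in rpb1-TPY (3). With the replicate block 80 genes were called in the Spt6 interaction, against 20 without it, and snR73 passed in spt6-R (-0.89) and spt6-KK (-0.83) and snR76 in spt6-R,KK (-0.68) besides the members named in the main results.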
